A study of Homo sapiens with 6 samples.

Results

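The 42 genes described here are interferon-stimulated genes, chosen by symbol in the deposited count table of MRC5 cells, a human lung fibroblast line, out of 58676 gene identifiers in all. They comprise transcription factors of the interferon response, antiviral effectors and other genes that interferons are known to switch on. The study asked how fibroblasts respond to conditioned media (CM) from alveolar epithelial type II (ATII) cells with and without RAS activation. The CM came from a human ATII line in which 4-hydroxytamoxifen (4-OHT) induces RAS activation. In the first group, called control CM (control ATII CM in the figures), 3 libraries came from MRC5 cells that received CM from untreated cells of that line for 24 h. In the second, called 4-OHT CM (4-OHT ATII CM in the figures), 3 came from MRC5 cells that received CM from cells of the line given 4-OHT, also for 24 h. The labels name no engineered change in the fibroblasts of either group, and no fibroblasts without CM or with an added interferon were among the libraries compared. Each group rests on the same fibroblast line and the same epithelial line, and any 4-OHT carried over in the CM cannot be told apart from what the RAS-activated cells secreted.

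Interferons are secreted proteins that cells release on sensing foreign or misplaced nucleic acid. Type I interferons act through the receptor IFNAR1/IFNAR2 and the kinases JAK1 and TYK2, which bring STAT2 and IRF9 to the interferon-stimulated response element. Interferon gamma acts through IFNGR1/IFNGR2, JAK1 and JAK2 and leads to binding at the gamma-activated site, and fibroblasts are known to respond to both kinds of interferon.

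RNA-Seq totals ranged from 17691849 to 26389449 counts per library, with a median of 22273931. The square root of the common dispersion, a measure of variation between replicates beyond counting error, was 4.36%. Control replicate 2 had the smallest total and stood apart from the other libraries along the first principal component, which held 24.5% of the variance. All 8 fibroblast markers were measured, with a summed level of 36329 to 39620 CPM (counts scaled to library size) in control CM and 37495 to 39011 in 4-OHT CM. Among them, *DCN*, *LUM* and *PDGFRA* were called higher in 4-OHT CM (log2 fold changes of 0.33, 0.29 and 0.22) and *VIM* lower (-0.10, adjusted p = 0.0414, edgeR, and called in 8 of 15 alternatives, with adjusted p up to 0.212 when 1 library was left out), and the part of these differences in the results was not tested. Of 10 alveolar epithelial markers, 5 had at least 10 counts in all. The 10 summed to 91.3 to 97.7 CPM in control CM and 89.6 to 95.8 in 4-OHT CM, most of it the keratin genes *KRT18*, *KRT8* and *KRT19*. Over the 6 libraries, *ABCA3* had 147 counts, *EPCAM* 48 and *CDH1* 4. *SFTPB* and *SFTPC* had 1 count each, and *NKX2-1* and *SFTPA1* had 0. The part of these epithelial markers in the results was not tested. Summed over 6 leukocyte markers, levels were 0.609 to 1.01 CPM in control CM and 1.14 to 1.94 in 4-OHT CM, with at least 10 counts in all for *CD14* alone and 2 markers at 0, and the part of these markers in the results was not tested. The labels do not say that replicates came from separate experiments, so p-values measure the spread between these libraries, which may be technical. In bulk RNA, more cells expressing a gene and more RNA per cell cannot be told apart.

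To show the letters that interferon-activated factors are known to read in these genes, motif matches were taken from RefSeq promoter sequences (GRCh38.p14), in the 250 bases before each start site. The core of the response element was searched as GAAANNGAAA on both strands (TTTCNNTTTC on the other), and the gamma-activated site as TTCNNNGAA, which reads the same on both strands. The windows below are of 3 members that rose in 4-OHT CM and of 5 well-known interferon targets that were not called, in the 5′ to 3′ direction of the gene, with each match in capitals.
*IRF1*, gamma-activated site 124 bases before the start, chr5:132490879-132490907, minus strand: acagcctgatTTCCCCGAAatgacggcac
*PLSCR1*, response element core 79 bases before a start, chr3:146544667-146544696, minus strand: cgggaaccggGAAAAGGAAAccgtgttgtg
*LGALS3BP*, response element core 58 bases before the start, chr17:78979962-78979991, minus strand: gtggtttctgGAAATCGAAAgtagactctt
*IFIT1*, response element cores 116 and 103 bases before the start, chr10:89392497-89392539, plus strand: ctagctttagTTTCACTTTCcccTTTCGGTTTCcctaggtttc
*IFIT3*, response element cores 156 and 122 bases before a start, chr10:89327831-89327894, plus strand: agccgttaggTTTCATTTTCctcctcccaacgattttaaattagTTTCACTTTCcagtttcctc
*ISG15*, overlapping response element cores 113 and 107 bases before the start, chr1:1013374-1013409, plus strand: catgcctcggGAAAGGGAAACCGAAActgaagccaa
*GBP1*, response element core 127 bases before the start, chr1:89065316-89065345, minus strand: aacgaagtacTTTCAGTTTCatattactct
*IFIH1*, overlapping response element cores 159 and 153 bases before the start, chr2:162318818-162318853, minus strand: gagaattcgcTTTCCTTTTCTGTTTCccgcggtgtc

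The *PLSCR1* and *GBP1* windows also lie in exons of transcripts of the same gene that GENCODE starts further upstream, and the *IFIH1* window touches an exon of the neighbouring *GCA*. Of the 42 members, 35 were in the RefSeq table. *IRF7*, *IFIT2*, *OAS2*, *OASL*, *MX2*, *GBP2* and *TRIM22* were not. The response element core was present in 22 members (62.9%), against 3.71% of the 27305 genes in the table. The gamma-activated site was found in 10 members (28.6%), against 8.09% of genes in the table. The motifs occurred together in 5 members and neither was found in 8, among them *UBE2L6*, *STAT2*, *DTX3L* and *SP100*. In 4 members, the matches of the 2 motifs overlapped. A match is a run of letters and not a measured binding site.

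**Figure D1:**
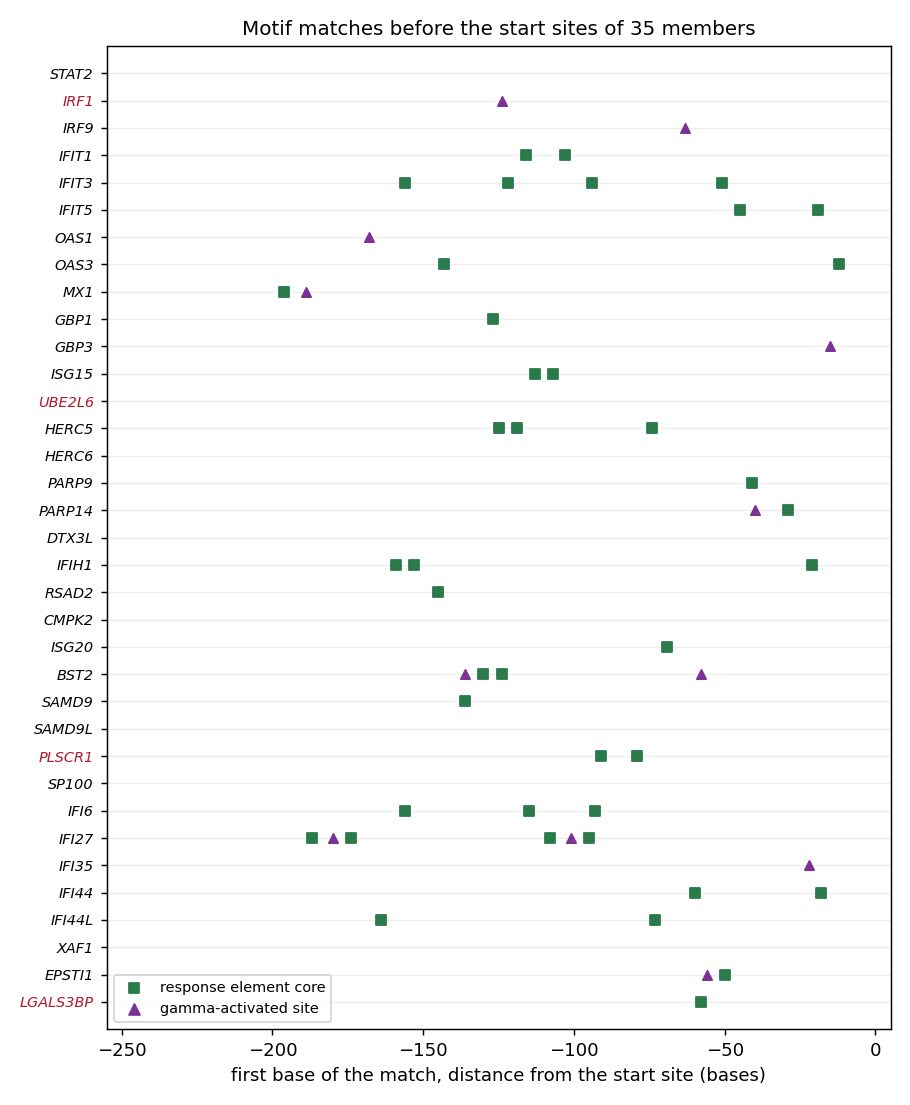
Position of motif matches in the 250 bases before the start sites of the 35 members in the RefSeq table. The x axis gives the first base of each match as its distance from the start site in bases, each line is a gene with the matches of all its listed start sites drawn together, squares are response element cores, triangles are gamma-activated sites, and red names are members with an adjusted p below 0.05. Matches are present in 27 of the 35 genes, with one in *IRF1* at 124 bases and none in *UBE2L6*.

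Of the 42 members, 40 had at least 10 counts summed over the 6 libraries and were tested among 19072 genes. The remaining 2 were not measured: *RSAD2*, which encodes the antiviral enzyme viperin, had 4 counts in all, and *OAS1*, which makes the 2′-5′ oligoadenylates that activate RNase L, had 5. The lowest measured members were *CMPK2* with 18 counts, *HERC5* with 22, *IFI27* with 28, *OASL* with 29 and *OAS2* with 41.

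Levels of the members were uneven in these fibroblasts, all of which had received CM. On the TPM scale, which gives levels per gene length, 22 members had a mean of at least 10 over the 6 libraries and 9 members a mean below 1, the 2 that were not measured among them. *LGALS3BP*, which encodes a secreted glycoprotein that binds galectins, had the highest level at 342 ± 7.71 TPM in control CM (mean ± SD; n = 3) and 381 ± 4.42 TPM in 4-OHT CM. After it came *UBE2L6* at 144 ± 3.76 and 168 ± 4.79 TPM, *ISG15* at 145 ± 3.55 and 151 ± 2.25 TPM, and *STAT2* at 126 ± 7.06 and 129 ± 6.62 TPM. In control CM, the levels of *UBE2L6* and *ISG15* differed by less than their spread. *GBP3* at 114 ± 1.30 and 124 ± 5.95 TPM and *IFI6* at 113 ± 9.33 and 116 ± 3.14 TPM completed the 6 highest, and their libraries overlapped in control CM but not in 4-OHT CM. The sum over the 42 members was 1519, 1518 and 1508 TPM in control CM and 1641, 1668 and 1638 TPM in 4-OHT CM, so that the groups did not overlap. *LGALS3BP* made up 22.9% of that sum.

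**Figure D2:**
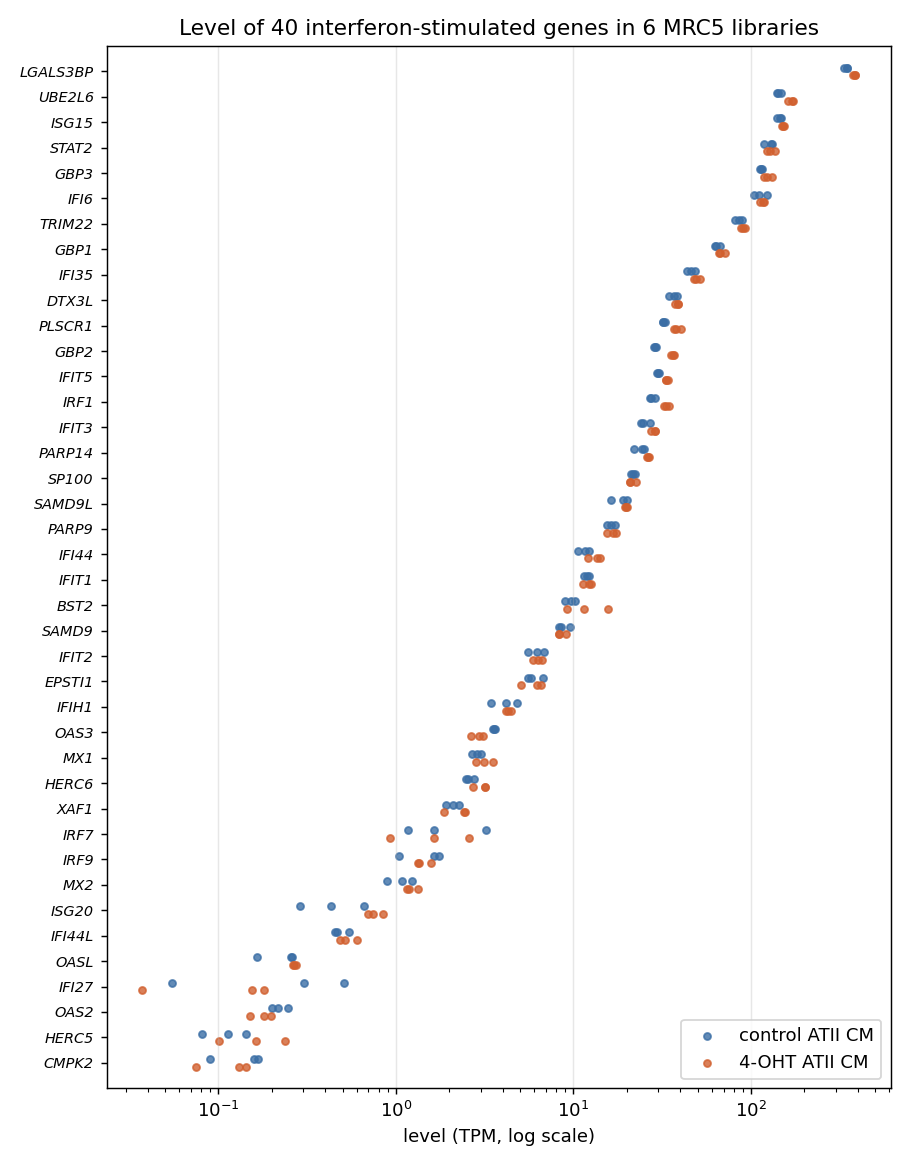
Level of the 40 measured members in each of the 6 libraries, in TPM on a log scale, ordered by the mean level. Each point is a library, blue for control CM and orange for 4-OHT CM. Levels run from *LGALS3BP*, above 300 TPM in all libraries, to *CMPK2* and *HERC5*, below 1 TPM in all libraries.

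In 4-OHT CM, 5 of the 40 measured members were upregulated and 0 were downregulated by edgeR's quasi-likelihood test (Benjamini-Hochberg adjusted p below 0.05). They were *GBP2*, *IRF1*, *PLSCR1*, *UBE2L6* and *LGALS3BP*, and none changed by more than 0.34 on the log2 scale. Across all genes tested, 5.72% were called, 2.95% as higher and 2.76% as lower. DESeq2 and limma-voom also called 5 members higher and 0 lower, where DESeq2 called higher 3.92% of the 12411 genes it gave an adjusted p, which leaves out 9 measured members, and limma-voom 3.04% of the 19072. At an unadjusted p below 0.05, edgeR gave 11 members higher and 1 lower, against 8.72% and 8.61% of all genes. With no filter on low counts, *IFIT5*, *GBP3* and *PARP14* also passed in edgeR, and 8 members were called higher, against 3.15% of all genes. Fold changes were above 0 for 31 members and below 0 for 9, with a median log2 fold change of 0.11 over the members and -0.0020 over all genes. All 3 libraries of 4-OHT CM lay above all 3 of control CM for 12 members, against 11.7% of all genes tested. They lay below for *OAS2* and *OAS3*, against 10.4% of all genes.

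Precision depended on level. The 27 members with a mean of at least 5 CPM held all 5 calls, or 18.5% of them, against 5.12% called higher among the 10563 genes at that level. Of these 27, 23 had values above 0 and 4 below, with a median log2 fold change of 0.09 against 0.00053 for the genes at that level. The median standard error (SE) was 0.050 for these members and 0.29 for the 13 at lower levels, of which 0 were called. For each of the 22 uncalled members of at least 5 CPM, the upper 95% limit of the fold change was below 1.5-fold.

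**Figure D3:**
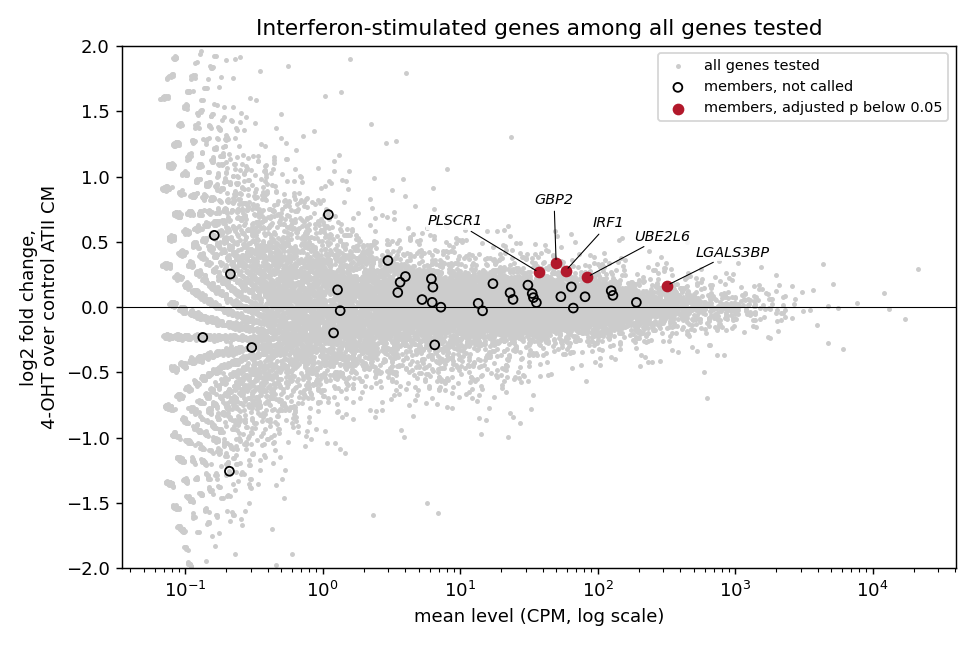
Log2 fold change of 4-OHT over control CM (y axis) against mean level in CPM on a log scale (x axis). Grey points are the genes tested, of which 124 lie outside the plotted range of 2 either way, open circles are uncalled members and red points the 5 members with an adjusted p below 0.05. The red points lie between 0.17 and 0.34, at levels where the grey cloud is narrow.

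Among transcription factors, *IRF1* rose and *STAT2* and *IRF9* did not pass the test. *IRF1* (ENSG00000125347, chr5:132481609-132490798 on GRCh38, minus strand) encodes interferon regulatory factor 1, an activator that is itself induced through the gamma-activated site. Its level was 54.8, 52.8 and 51.4 CPM in control CM and 61.1, 64.9 and 66.6 CPM in 4-OHT CM, without overlap. The log2 fold change was 0.28 (SE 0.044, 95% interval 0.18 to 0.37), with an adjusted p of 0.00110 in edgeR. The antisense gene *IRF1-AS1* shares 1716 exon bases with *IRF1* and had 857 counts against 7987 for *IRF1*. The library kit named in the labels does not mark strand, so reads of antisense pairs cannot be told apart. *STAT2*, the STAT specific to type I and type III interferons, had 193, 178 and 197 CPM in control CM and 183, 207 and 193 CPM in 4-OHT CM. These ranges overlapped, and the log2 fold change was 0.04 (SE 0.047, adjusted p = 0.774, edgeR). *IRF9*, the DNA-binding partner of STAT2, had 22 to 32 counts per library in control CM and 27 to 37 in 4-OHT CM, and shares 1838 exon bases with the near-identical ENSG00000259529, so that its level is uncertain. *IRF7*, which amplifies type I interferon production, had 44, 19 and 17 counts against 13, 42 and 28, and has a copy on an alternate contig of the assembly.

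None of the IFIT family, which encode proteins that bind foreign RNA, passed the test, although all 4 values were above 0. *IFIT5* was at 29.1, 29.1 and 29.8 CPM in control CM and at 32.3, 34.0 and 32.7 CPM in 4-OHT CM, with a log2 fold change of 0.17 (SE 0.050, adjusted p = 0.0629, edgeR). *IFIT3* was at 17.2, 16.1 and 15.5 CPM and at 17.6, 18.9 and 18.8 CPM, with a log2 fold change of 0.18 (SE 0.070, adjusted p = 0.181, edgeR). The groups did not overlap for either gene. *IFIT1*, one of the most strongly induced genes in cells given type I interferon, was at 12.9, 13.8 and 13.5 CPM and at 14.0, 13.1 and 14.0 CPM. Its groups overlapped, and the 95% interval of the log2 fold change ran from -0.13 to 0.19 (adjusted p = 0.903, edgeR). *IFIT2* had 112 to 144 counts against 145 to 161, a log2 fold change of 0.04 after normalization.

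The OAS family, sensors of double-stranded RNA, held the members whose libraries lay lower in 4-OHT CM. *OAS3* was at 7.26, 7.22 and 7.10 CPM in control CM and at 5.89, 6.37 and 5.40 CPM in 4-OHT CM. The log2 fold change was -0.29 (SE 0.11, 95% interval -0.52 to -0.06), which did not pass the test (adjusted p = 0.153, edgeR; 0.309, DESeq2). *OAS2* had 8, 6 and 7 counts against 5, 7 and 8, and *OASL*, an OAS-like protein without synthetase activity, had 3, 4 and 5 against 5, 6 and 6. At counts this low a difference of this size was not detectable, and the separation of both groups in CPM rests on few reads.

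*GBP2* had the smallest adjusted p of the members. The guanylate-binding proteins are GTPases that coat intracellular pathogens and are known above all as targets of interferon gamma. *GBP2* (ENSG00000162645, chr1:89106132-89150456, minus strand) was at 43.8, 45.2 and 43.6 CPM in control CM and at 56.2, 56.6 and 54.6 CPM in 4-OHT CM. All 3 libraries of 4-OHT CM were higher, with a log2 fold change of 0.34 (SE 0.041, 95% interval 0.25 to 0.42, adjusted p = 0.000143, edgeR). It shares 621 exon bases with *GBP7*, which had 0 counts. *GBP3* was at 118, 121 and 122 CPM against 136, 131 and 126 CPM, also without overlap, with a log2 fold change of 0.13 (SE 0.039, adjusted p = 0.0763, edgeR, and 0.0443 without control replicate 2). *GBP1* was at 77.0, 82.6 and 77.2 CPM against 86.3, 83.0 and 80.8 CPM. Its groups overlapped, with a log2 fold change of 0.08 (SE 0.042, adjusted p = 0.359, edgeR). The Mx proteins, dynamin-like GTPases that block viruses, did not pass. *MX1* was at 5.95, 5.71 and 6.35 CPM against 6.53, 7.58 and 5.97 CPM (log2 fold change 0.15, adjusted p = 0.574, edgeR), and *MX2* at 2.81, 3.47 and 3.97 CPM against 4.20, 3.73 and 3.80 CPM (0.19, adjusted p = 0.595).

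*ISG15* is a ubiquitin-like protein that is attached to other proteins. Among *ISG15*, *UBE2L6*, *HERC5* and *HERC6*, *UBE2L6* alone passed the test. *UBE2L6* (ENSG00000156587, chr11:57551656-57568284, minus strand), the E2 enzyme for ISG15, was at 74.9, 80.0 and 77.0 CPM in control CM and at 91.5, 92.6 and 87.9 CPM in 4-OHT CM. The groups did not overlap, and the log2 fold change was 0.23 (SE 0.040, 95% interval 0.15 to 0.32, adjusted p = 0.00243, edgeR). *ISG15* itself was at 32.1, 33.8 and 34.1 CPM against 34.6, 36.0 and 34.5 CPM. Its libraries were separate by a narrow margin, and the log2 fold change was 0.07 (SE 0.049, adjusted p = 0.507, edgeR). The HERC genes were low. *HERC5*, the main human ISG15 ligase, had 2, 3 and 3 counts against 6, 3 and 5, and *HERC6* had 83, 65 and 80 against 84, 115 and 119 (log2 fold change 0.23, adjusted p = 0.422, edgeR).

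Of the ADP-ribosyltransferase group, 3 members had values above 0 and none passed the test. *PARP14*, a mono-ADP-ribosyltransferase, was at 63.6, 56.4 and 62.9 CPM in control CM and at 66.9, 70.0 and 67.1 CPM in 4-OHT CM. The groups did not overlap, with a log2 fold change of 0.15 (SE 0.047, adjusted p = 0.0677, edgeR). *DTX3L*, a ubiquitin ligase that forms a complex with PARP9, was at 52.7, 50.1 and 54.9 CPM against 53.3, 57.1 and 56.5 CPM. *PARP9* was at 37.1, 35.6 and 33.7 CPM against 37.9, 37.0 and 34.2 CPM. Both overlapped between groups (log2 fold changes of 0.08 and 0.03), and they share 217 exon bases on opposite strands.

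*PLSCR1* was the member that rose among the other antiviral effectors. *PLSCR1* (ENSG00000188313, chr3:146515180-146544864, minus strand), a phospholipid scramblase with antiviral activity, was at 34.5, 34.1 and 33.8 CPM in control CM and at 39.0, 41.1 and 42.9 CPM in 4-OHT CM. The groups did not overlap, and the log2 fold change was 0.27 (SE 0.049, 95% interval 0.16 to 0.37, adjusted p = 0.00389, edgeR). *ISG20*, an RNA exonuclease, had the largest fold change above 0 of the members, with 11, 14 and 27 counts against 33, 34 and 33. Its log2 fold change of 0.71 (SE 0.29) did not pass the test (adjusted p = 0.196, edgeR). *TRIM22*, an antiviral ubiquitin ligase, was among the more abundant members at 124, 120 and 131 CPM against 132, 131 and 138 CPM. Its groups overlapped, with a log2 fold change of 0.09 (SE 0.040, adjusted p = 0.261, edgeR).

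The remaining effectors did not pass either. *IFIH1*, which encodes the RNA sensor MDA5, was at 5.15, 4.31 and 6.04 CPM in control CM and at 5.53, 5.33 and 5.40 CPM in 4-OHT CM. *SAMD9L* was at 32.9, 28.6 and 35.2 CPM against 34.0, 35.2 and 35.0 CPM, and its paralogue *SAMD9* at 15.8, 14.4 and 13.9 CPM against 15.2, 14.2 and 14.0 CPM. For *SP100*, a component of nuclear bodies, the levels were 67.6, 65.6 and 67.1 CPM against 69.0, 65.4 and 65.2 CPM, a log2 fold change of -0.0073 with a 95% interval of -0.09 to 0.08. *BST2*, or tetherin, which holds virus particles at the cell surface, had 56, 50 and 56 counts against 55, 109 and 83. Only 4-OHT replicates 2 and 3 were above the control libraries, and the log2 fold change was 0.36 (SE 0.20, adjusted p = 0.383, edgeR). *CMPK2*, a mitochondrial nucleotide kinase, had 2, 3 and 4 counts against 3, 2 and 4.

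*LGALS3BP* was the most abundant member and the one that rose among the other interferon-induced genes. *LGALS3BP* (ENSG00000108679, chr17:78971238-78980109, minus strand) was at 301, 307 and 293 CPM in control CM and at 328, 344 and 338 CPM in 4-OHT CM. The groups did not overlap, and the log2 fold change was 0.17 (SE 0.033, 95% interval 0.09 to 0.24, adjusted p = 0.00669, edgeR). Its call was lost without control replicate 3 (adjusted p = 0.0564), without 4-OHT replicate 2 (0.0605) and without 4-OHT replicate 3 (0.0529), while the other 4 upregulated members passed in all 15 alternative analyses. *IFI6*, a mitochondrial and endoplasmic reticulum protein, was at 23.4, 26.1 and 22.1 CPM against 23.7, 25.3 and 25.3 CPM. Its log2 fold change was 0.06 (SE 0.067, adjusted p = 0.735, edgeR). *IFI35* was at 20.9, 22.4 and 23.4 CPM against 22.7, 25.4 and 23.8 CPM (log2 fold change 0.11), and *IFI44* at 5.25, 6.16 and 5.78 CPM against 6.71, 7.18 and 6.05 CPM (0.22). Both overlapped between groups.

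Among the low members of this set, *IFI27* had the most negative fold change, on few reads. It had 11, 1 and 7 counts in control CM and 4, 4 and 1 in 4-OHT CM, with a log2 fold change of -1.26 (SE 0.72, adjusted p = 0.408, edgeR), and has a copy on an alternate contig. *IFI44L* had 24, 21 and 31 counts against 33, 33 and 32, a log2 fold change of 0.13 after normalization. *XAF1*, a proapoptotic protein, had 72, 56 and 83 counts against 66, 99 and 105 (log2 fold change 0.11), and *EPSTI1* had 172, 120 and 159 against 133, 201 and 200 (-0.00070). All 4 overlapped between groups.

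**Figure D4:**
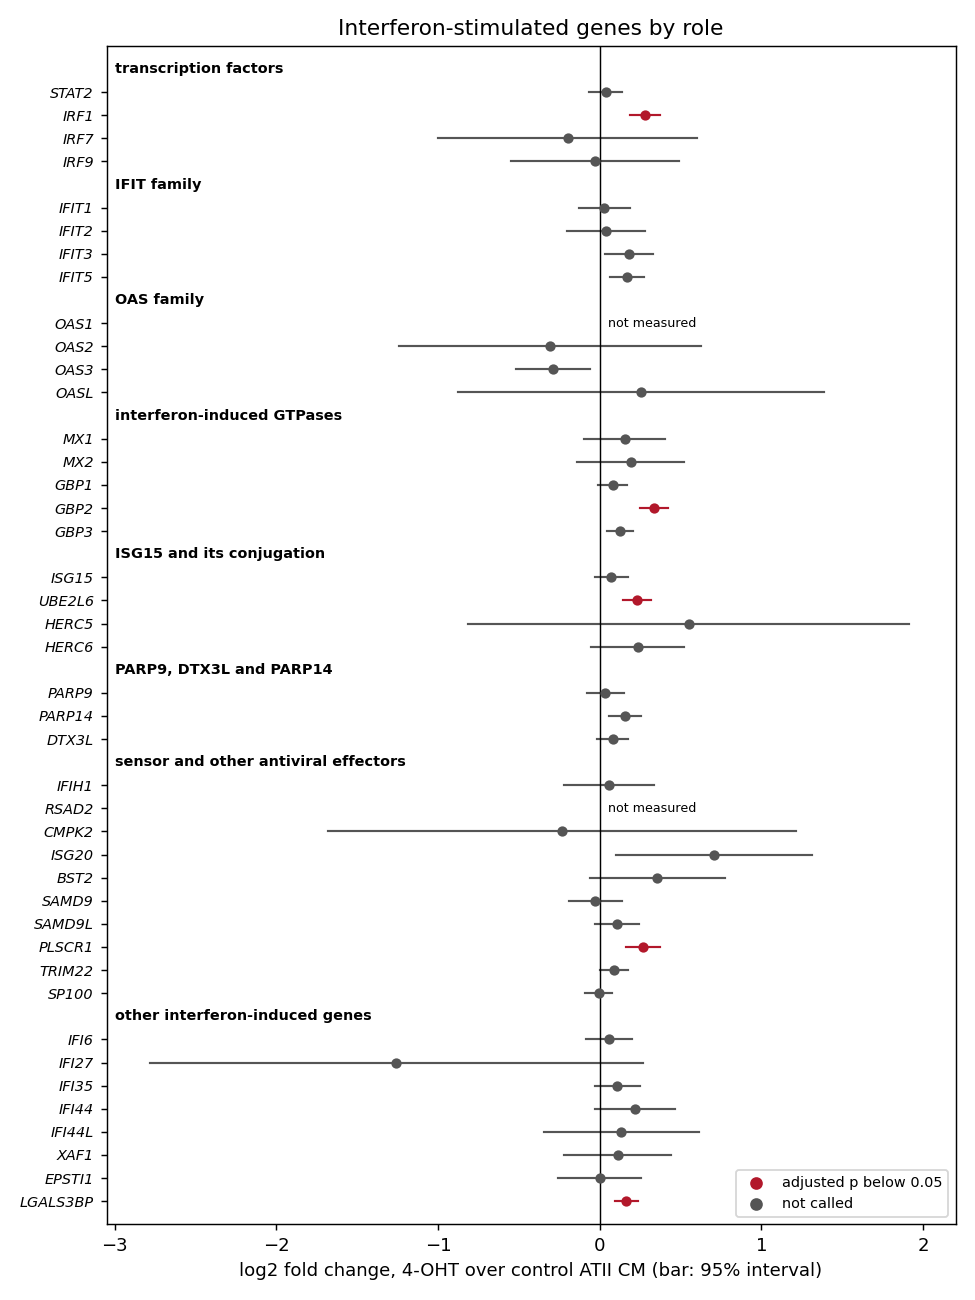
Log2 fold change of 4-OHT over control CM for each member, grouped by role, with the 95% interval from edgeR as a bar. Red marks the 5 members with an adjusted p below 0.05, grey the uncalled members, and *OAS1* and *RSAD2* are shown as not measured. The intervals of the red members lie above 0, from 0.09 to 0.42, and those of low members such as *IFI27* and *HERC5* are wide.

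**Figure D5:**
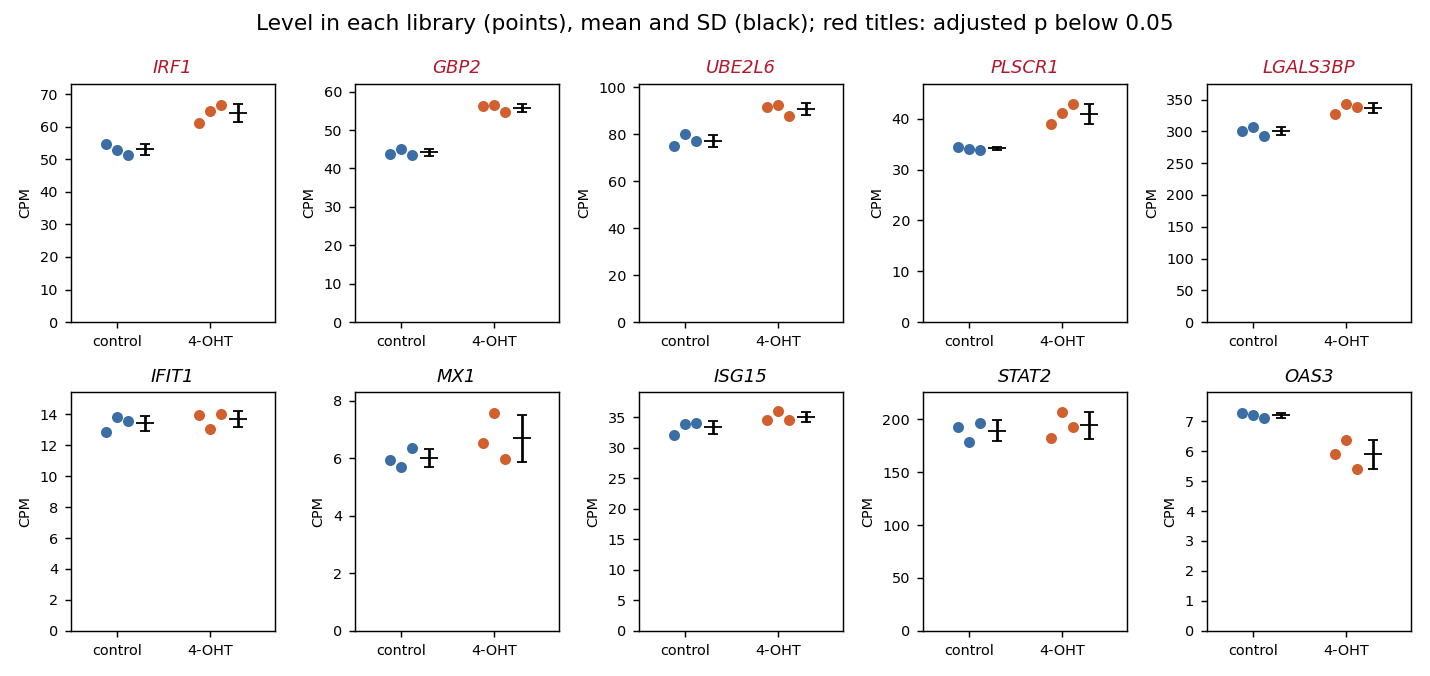
Level in CPM of the 5 upregulated members (red titles) and of *IFIT1*, *MX1*, *ISG15*, *STAT2* and *OAS3* in each library. Points are libraries, with the mean and SD in black (n = 3 per group) and each y axis starting at 0. The groups separate by about 12% for *LGALS3BP* and 26% for *GBP2*, and overlap for *IFIT1*, *MX1* and *STAT2*.

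Fold changes of members with and without the response element core are given without a test. The 21 measured members with it had a median log2 fold change of 0.13, and *PLSCR1* and *LGALS3BP* were called among them. The 12 measured members of the RefSeq table without it had a median of 0.11, and *IRF1* and *UBE2L6* were called.

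Other genes of the pathway were taken from a list of 91, of which 70 were measured. By edgeR, 12 were upregulated and 1 downregulated, against 2.95% and 2.76% of all genes tested. Among all genes with a mean of at least 5 CPM, 5.12% were called higher and 4.67% lower. Without 4-OHT replicate 2 or without 4-OHT replicate 3, 7 were upregulated and 0 downregulated. Of 10 interferon genes, only *IFNE* had reads above the limit, with 5, 8 and 1 counts in control CM and 4, 4 and 7 in 4-OHT CM. The other 9, including *IFNB1* and *IFNG*, had 0 counts in all libraries. That allows a level of up to 0.114 to 0.170 CPM per library (3 counts over the library total without TMM scaling, counting error only). For *IFNL2* and *IFNL3*, which are near-identical to each other, 0 counts set no such limit, since the treatment of reads with several positions is not given. Of 9 receptor and kinase genes, 8 were measured and none passed. *IFNAR1* had the smallest adjusted p, at 54.8 ± 2.68 CPM in control CM and 59.4 ± 0.88 CPM in 4-OHT CM (log2 fold change 0.12, adjusted p = 0.150, edgeR). *IFNGR1* was at 42.9 ± 2.93 and 44.9 ± 2.42 CPM, *IFNGR2* at 11.6 ± 0.33 and 11.7 ± 0.78 CPM, and *IFNAR2* had 26 to 32 counts against 30 to 42 per library, though *IFNAR2* shares 2038 exon bases with a readthrough gene.

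Some other STAT and IRF genes rose as well, but not all. *IRF3* had a log2 fold change of -0.03 (adjusted p = 0.815, edgeR). *IRF5* and *IRF8* were not measured, with 2 and 5 counts in all. *STAT3*, which carries signals of the interleukin-6 family, had a log2 fold change of 0.15 (adjusted p = 0.0118, edgeR), and *IRF2*, which competes with IRF1, one of 0.22 (adjusted p = 0.0211). *STAT3* was not called without control replicate 3, 4-OHT replicate 2 or 4-OHT replicate 3 (adjusted p = 0.0590 to 0.0875), nor *IRF2* without control replicate 1 or any 1 of the 4-OHT replicates (0.0549 to 0.0949). Among feedback inhibitors, *SOCS3*, also known as a target of STAT3, went from 91.1 ± 3.13 to 114 ± 1.92 CPM (log2 fold change 0.32, adjusted p = 0.000135, edgeR). *SOCS1*, which restrains interferon signalling, had a log2 fold change of -0.11 (adjusted p = 0.424), and *USP18*, which removes ISG15 and blocks IFNAR2, one of 0.23 (adjusted p = 0.126). Of 9 nucleic acid sensing genes, *TRIM25*, a ubiquitin ligase of the RIG-I route, was the only one to pass, and it fell by 0.17 on the log2 scale (adjusted p = 0.0142, edgeR). Its call was lost without control replicate 1, 4-OHT replicate 2 or 4-OHT replicate 3 (adjusted p = 0.0547 to 0.0868).

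Of 10 measured antigen presentation genes, *HLA-C* was the one called by edgeR (log2 fold change 0.19, adjusted p = 0.00868, edgeR, and 0.0787 without 4-OHT replicate 3). *B2M*, the light chain of class I molecules, was at 289 ± 11.8 CPM in control CM and 316 ± 9.58 CPM in 4-OHT CM, without overlap (log2 fold change 0.13, adjusted p = 0.0606, edgeR), and passed in DESeq2 (0.0284), limma-voom (0.0388), edgeR with no filter (0.00627) and edgeR with the replicate number as a block (0.0437). *TAP1*, *PSMB8* and *PSMB9*, well-known targets of interferon gamma, had 0 counts in all libraries and each has copies on 7 alternate contigs of the assembly, and their expression could not be read from the table. Of 33 measured other interferon-induced genes, 7 rose, against 2.95% of all genes tested. *CASP1*, the inflammatory caspase, went from 81.8 ± 1.26 to 107 ± 2.57 CPM (log2 fold change 0.38, adjusted p = 2.2e-05, edgeR). The interferon-induced transmembrane genes, which encode blocks to virus entry, had log2 fold changes of 0.48 for *IFITM1*, 0.28 for *IFITM2* and 0.19 for *IFITM3* (adjusted p = 0.000143, 0.00295 and 0.00686). *IFITM3* was not called without 4-OHT replicate 2 (adjusted p = 0.0625), and *IFITM1* and *IFITM2* share 351 exon bases. *WARS1*, a tRNA synthetase, *TRIM5*, which restricts retroviruses, and *APOL1* had log2 fold changes of 0.17, 0.16 and 0.27 (adjusted p = 0.00100, 0.0282 and 0.0446), and *APOL1* was not called by DESeq2 (adjusted p = 0.129). In edgeR, *TRIM5* was not called without control replicate 3 or any 1 of the 4-OHT replicates (adjusted p = 0.0533 to 0.128), nor *APOL1* without control replicate 1, control replicate 3 or any 1 of the 4-OHT replicates (0.0682 to 0.168).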

How the data were processed

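RNA from MRC5 fibroblasts (3 libraries in control CM, 3 in 4-OHT CM) was sequenced with paired-end reads. Adapter and quality trimming (Trim Galore) was followed by alignment to GRCh38 with HISAT2 2.1.0 and counting per gene with featureCounts 1.6.5. The authors deposited raw counts, together with each gene's length in bases. The annotation release, the strand setting and the treatment of reads with several positions are not given in the sources used here, and reads of genes copied on alternate contigs may be lost. For 45 gene identifiers with a line on X and another on Y, the lines were summed. GENCODE release 44 supplied a symbol for 16843 of the genes tested.

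Groups came from the sample labels. Genes with at least 10 summed counts entered a quasi-likelihood fit in edgeR 4.0.16 under R 4.3.3, with TMM scaling and no covariate, and p-values were adjusted by Benjamini-Hochberg over all 19072 genes (threshold 0.05). CPM used TMM-scaled library sizes and TPM the deposited lengths. DESeq2 1.42.0, limma 3.58.1 voom, other scalings and filters, a replicate block, thinning to the smallest total and leaving out each library were alternatives. Near-identical genes were sought with minimap2 2.31-r1302, at 90% of a transcript and 98% identity for alternate contigs and 50% and 95% for other genes. The default limit of minimap2 on secondary hits was kept, so that partial or less similar copies may have been missed. The tests were checked on simulated counts. The rule gave full statistics for called members, the 8 others with the smallest p and the 6 highest in TPM, and values for the rest. Members and lists were chosen with earlier results of these data known. Some results that fall under the rule are not reported here.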

Additional observations from a re-analysis of the deposited data

How the results depend on the processing

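Over the alternatives, the count of members called ranged from 4 to 6 when 1 library was left out and was 8 with no filter, all higher. The additions with no filter were *IFIT5* (adjusted p = 0.0438), *GBP3* (0.0221) and *PARP14* (0.00744), and no member was called lower in any. *PARP14* also passed after thinning (0.0486) and *GBP3* without control replicate 2 (0.0443). The median log2 fold change of the members ranged from 0.0743 to 0.140 with 1 library left out. Genes called over the whole table numbered 1601 with no filter and ranged from 533 to 1530 with 1 library left out (663 without control replicate 3, 533 without 4-OHT replicate 2 and 615 without 4-OHT replicate 3), those higher from 289 to 696, with 875 under no filter, and those lower from 244 to 834. Pathway genes called numbered 20 with no filter, 3 of them lower, and ranged from 7 to 18 with 1 library left out, 7 to 13 higher and 0 to 5 lower. Libraries with the same replicate number did not deviate together (correlations of -0.01, -0.10 and -0.09), and with the replicate number as a block 985 genes and 5 members were called, while *APOL1* was lost (adjusted p = 0.0830). Of 586 values of members under alternatives, 578 stayed on their side of the threshold. As 35 members were uncalled, many of them far from the threshold, that share says little about the 5 calls. *LGALS3BP* passed in 12 of 15 alternatives. Depth limits the 13 members below 5 CPM.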

Other observations

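A few interferon-induced genes outside the members stood out at low counts without passing the test with its filter of 10 summed counts. *TNFSF10*, which encodes the death ligand TRAIL, had 8, 3 and 7 counts in control CM and 11, 19 and 23 in 4-OHT CM (log2 fold change 1.30, adjusted p = 0.0705, edgeR, and 0.0305 with no filter). *CXCL10*, a chemokine gene, had 8, 6 and 6 counts against 12, 13 and 19 (0.88, adjusted p = 0.224), and *RTP4* had 11, 14 and 14 against 19, 27 and 24 (0.59, adjusted p = 0.301). In each of these the groups did not overlap. *LY6E* differed in 1 library alone, with 44, 37 and 43 counts against 41, 262 and 55, the highest in 4-OHT replicate 2 (adjusted p = 0.181, edgeR, and 3.39e-11 with no filter). Its log2 fold change was 1.27, and with 1 library left out the lowest value was -0.02. Of the leukocyte markers, *CD14* had 12, 16 and 19 counts against 23, 38 and 49 (adjusted p = 0.0597, edgeR), and passed with no filter (0.0136), without control replicate 2 (0.0432) and without 4-OHT replicate 1 (0.0310), while *PTPRC*, a general leukocyte marker, had 1, 1 and 0 against 0 in every library. These genes were chosen after their values were seen.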
